A study of Mus musculus with 26 samples.

Results

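Early oxidative and early osmotic stress were compared directly in the RNA of NIH3T3, a permanent cell line grown from fibroblasts of mouse embryos. The comparison used 4 RNA sequencing libraries of 26 samples in the series: 2 from cells given H2O2 for 2 h and 2 from cells given KCl for 2 h. They were chosen by their labels, but earlier results of these data were known when they and the gene lists below were chosen. H2O2 is the oxidative stress of the study and KCl the osmotic stress, and no dose is given in the sources used here. A control group of 2 RNA libraries, shared by both treatments, was kept out of the test, and its levels are printed only as values beside the treated ones. Libraries of the same treatments at 7 h and of ribosome footprints at 2 h served as further readouts. The labels number the 2 samples of each group as replicates without saying that they came from separate cultures, so the p-values measure the spread between these samples, which may be technical.

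Hydrogen peroxide is known to oxidise cysteines in sensor proteins, which frees the transcription factor NRF2 to switch on genes of glutathione and thioredoxin metabolism. Stress kinases and the translation factor eIF2 are also known to respond to it, the latter through the integrated stress response, in which the mRNA of the transcription factor ATF4 is translated while most others are not. Raised potassium chloride draws water from cells, and the transcription factor NFAT5 is known to answer by switching on transporters and enzymes that fill the cell with compatible osmolytes such as sorbitol, inositol, betaine and taurine. Both stresses are also known to let RNA polymerase run past gene ends, giving transcripts downstream of genes (DoGs) that can read into the next gene. That read-in is the question in the study's title.

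Values per gene are counts per 1000000 (CPM), so each is a share of a library's RNA. A change in a share of the cells and a change in every cell cannot be told apart in such bulk samples. Differences are log2 values, H2O2 minus KCl, with the standard error of the fit (SE), and a gene was called where its adjusted p was below 0.05 by edgeR's quasi-likelihood test with Benjamini-Hochberg adjustment over all genes tested.

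The H2O2 libraries held 30541457 and 33106958 expected counts and the KCl libraries 25207561 and 26939393. In the H2O2 libraries 15010 and 15175 genes had at least 1 count, against 14119 and 14146 in the KCl libraries. The KCl libraries were less deep, and the deeper control libraries, with 45244430 and 35775040 counts, had 14170 and 14013 such genes. Why these numbers differed was not tested. All 11 fibroblast markers, such as the collagen genes Col1a1 and Col3a1, were above 1 CPM in all 4 libraries, with a summed level of 17330 to 17480 CPM under H2O2 and 19940 to 20640 CPM under KCl. Among 24 markers of epithelial, endothelial, leukocyte, muscle, fat and nerve cells, the highest was the lysosomal gene Cd68 at up to 15.3 CPM, and Krt5, Krt14, Cd3e, Adgre1, Myod1, Myog, Rbfox3 and Snap25 were at 0 in all 4. Replicates correlated across genes with r of 0.9956 (H2O2) and 0.9943 (KCl). In a principal component plane that also held the 7 h libraries, the replicates of each group lay together and apart from the other groups.

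The 2 stresses set 6599 of 13172 tested genes apart (50.1% called), 3482 of them higher in H2O2 (26.4%) and 3117 higher in KCl (23.7%). Of all tested genes 73.7% had libraries that did not overlap between the treatments. A difference of at least 2-fold was called for 1644 genes (12.5%), and here H2O2 had most: 1274 genes were higher in H2O2 (9.67%) and 370 higher in KCl (2.81%). The surplus was largest among genes of low level. Below an average of 1 CPM, 28.8% of tested genes were called at least 2-fold higher in H2O2 and 4.9% in KCl; at 8 CPM or more the shares were 4.19% and 2.1%. In that upper range the calls of any size went the other way, with 2266 genes higher in H2O2 and 2786 higher in KCl. The filter on low counts lets a gene in by its level in 2 libraries. Low genes could therefore enter through the group where they were high, and how far this set the shares below 1 CPM was not tested. Without the filter, 1436 genes were called at least 2-fold higher in H2O2 and 395 in KCl.

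The 1274 genes higher in H2O2 had a median of 2.94 and 3.1 CPM in the H2O2 libraries, 0.824 and 0.79 CPM in the KCl libraries and 0.963 and 0.977 CPM in the control. The 370 genes higher in KCl had a median of 15.9 and 15.8 CPM under KCl, 5.41 and 5.22 CPM under H2O2, and 7.57 and 7.82 CPM in the control. By RefSeq positions the first set spanned a median of 15.7 kb of genome per gene and the second 21.6 kb, beside 23.7 kb for all genes tested. When log2(TPM + 1) was tested with limma in place of the counts, 4113 genes were higher in H2O2 and 1879 in KCl, so the share of calls higher in H2O2 was 68.6% against 52.8% with edgeR. The 2-fold count fell to 832 on that scale, which compresses differences of low genes.

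**Figure D1:**
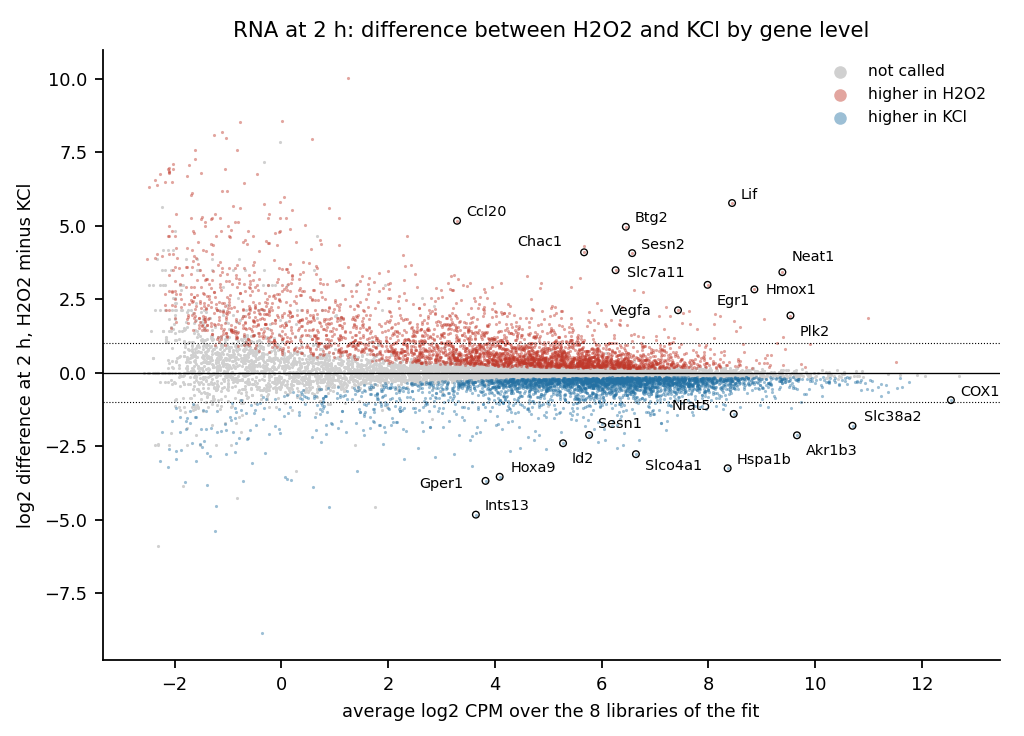
Each point is 1 of the 13172 tested genes, with its average log2 CPM over the 8 libraries of the fit on the x axis and its log2 difference at 2 h (H2O2 minus KCl) on the y axis; red and blue points were called higher in H2O2 (3482) or in KCl (3117), grey points were not called, and dotted lines mark 2-fold. The red cloud widens toward low levels, and the labelled genes run from Lif at 5.77 to Ints13 at -4.83.

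The largest difference among genes with an average of at least 8 CPM belonged to Lif (chr11:4257568-4272514 in RefSeq, GRCm38.p6), which encodes leukemia inhibitory factor, a cytokine of the interleukin-6 family. Lif stood at 982 and 951 CPM under H2O2, 19.9 and 15.6 CPM under KCl, and 13.5 and 17.6 CPM in the control. The H2O2 libraries were far above the other 4, and those of KCl and control overlapped. The log2 difference was 5.77 ± 0.13 (SE), a 54.5-fold higher level (edgeR adjusted p = 5e-11). Ccl20, a chemokine that attracts CCR6-bearing leukocytes, had 31.3 and 31.2 CPM under H2O2 and 0.907 and 0.83 CPM under KCl, with 0.754 and 0.608 CPM in the control (log2 5.17 ± 0.18).

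Btg2, an antiproliferative gene induced by p53 and by growth signals, had 123 and 134 CPM under H2O2 but 4.33 and 3.95 CPM under KCl. The control, at 16.8 and 14.8 CPM, lay between the treatments, so Btg2 under KCl was also low beside untreated cells. The log2 difference was 4.96 ± 0.11. Tcim, a small regulator of Wnt signalling, had the same order of groups: 155 and 145 CPM under H2O2, 23.4 and 23 CPM in the control, and 8.78 and 6.36 CPM under KCl (log2 4.31 ± 0.13).

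For Neat1 (chr19:5824708-5845480), the long noncoding RNA that scaffolds paraspeckles, the order of the groups differed from that of Lif. It had 962 and 1073 CPM in the control, 772 and 633 CPM under H2O2, and 82.5 and 49.2 CPM under KCl. Both treated groups lay below the control, and the KCl libraries stood apart from the rest (log2 3.42 ± 0.19). Lcmt2, a tRNA-modifying methyltransferase, and Rpp38, a protein of ribonuclease P, also had KCl as the low group. Lcmt2 had 10.6 and 9.82 CPM under H2O2, 8.42 and 8.03 CPM in the control and 1.24 and 0.83 CPM under KCl. For Rpp38 these were 12.3 and 14.4, 7.24 and 6.08, and 1.44 and 1.3 CPM. The RefSeq spans of Lcmt2 and Rpp38 overlap those of Adal and Nmt2, so their counts are uncertain if strand was not used in counting.

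**Figure D2:**
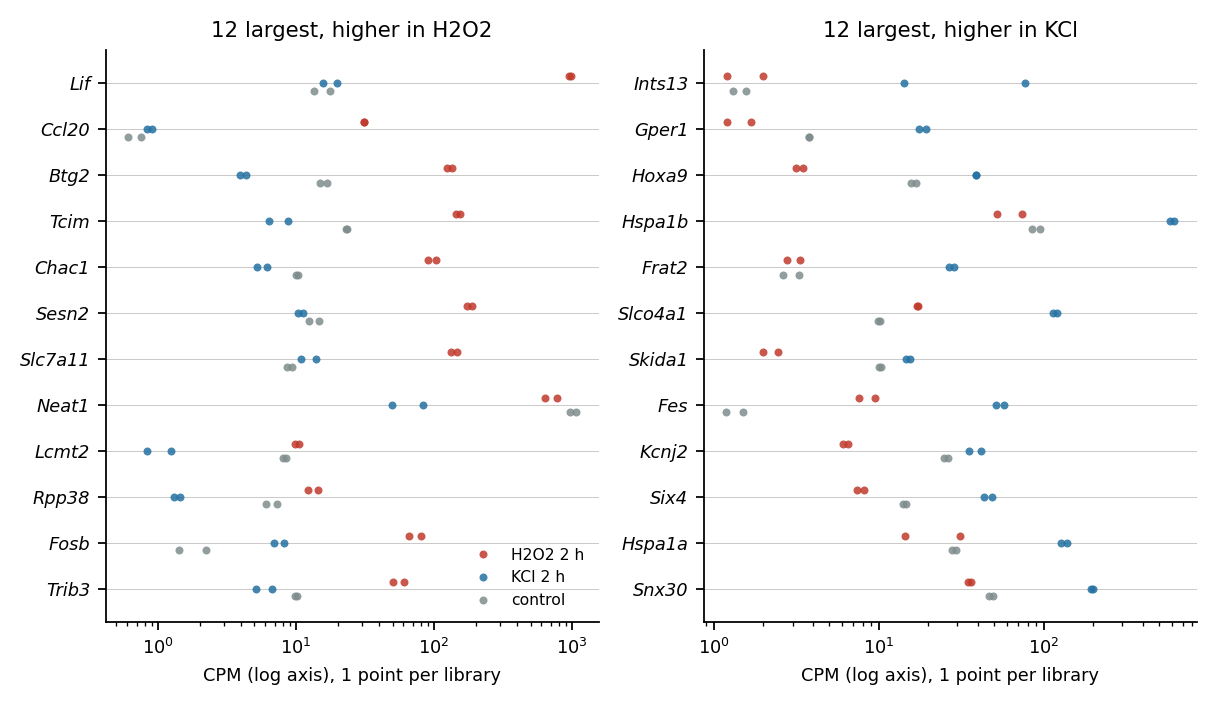
Levels in CPM (log axis) of the 12 genes with the largest difference in each direction, 1 point per library, in H2O2 at 2 h (red), KCl at 2 h (blue) and the shared control (grey). For Lif, Slc7a11 and Fosb the red points stand apart, while for Neat1, Lcmt2 and Rpp38 it is the blue points, at 0.83 to 82.5 CPM, that stand apart.

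Counts of list members are set against the shares of all tested genes, 26.4% higher in H2O2 and 23.7% higher in KCl. Most genes on the integrated stress response list were called higher in H2O2. Of 30 tested, 24 were higher in H2O2, 2 were higher in KCl (Ddit4 and Nupr1) and 4 were not called, with a list median of 0.70 beside 0.00 for all genes tested. Chac1, which degrades glutathione, had 104 and 90.8 CPM under H2O2, 6.18 and 5.21 CPM under KCl, and 10.1 and 10.3 CPM in the control (log2 4.09 ± 0.10). Sesn2, a leucine sensor that restrains the growth kinase complex mTORC1, had 188 and 172 CPM under H2O2 and 11.2 and 10.3 CPM under KCl, with 12.4 and 14.6 CPM in the control (log2 4.07 ± 0.08). Slc7a11, the cystine importer that feeds glutathione synthesis, had 132 and 146 CPM under H2O2 against 10.8 and 13.9 CPM under KCl and 8.6 and 9.38 CPM in the control (log2 3.49 ± 0.12).

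Trib3, a pseudokinase that feeds back on ATF4, had 60.3 and 50.4 CPM under H2O2 and 6.68 and 5.1 CPM under KCl (log2 3.23 ± 0.12). Ddit3, which encodes the transcription factor CHOP, had 54.7 and 46.8 CPM under H2O2 and 16.8 CPM in both KCl libraries (log2 1.60 ± 0.09), and its span overlaps that of Mbd6. Atf4 itself differed little in RNA: 553 and 537 CPM under H2O2, 429 and 381 CPM under KCl, and 245 and 229 CPM in the control (log2 0.43 ± 0.06, called). Both treated groups thus lay above the control for Atf4, while for Chac1 and Trib3 the KCl libraries lay below it.

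The list overlaps others: 12 of 17 amino acid transporter genes were higher in H2O2, Slc7a11 among them, and 4 were higher in KCl (Slc7a6, Slc36a4, Slc38a4 and Slc38a2), with a list median of 0.58. Slc3a2, the shared heavy chain of several such transporters, had 599 and 559 CPM under H2O2, 222 and 206 CPM under KCl and 183 and 172 CPM in the control (log2 1.43 ± 0.06). Of 20 cytosolic aminoacyl-tRNA synthetases, which load amino acids on their tRNAs, 10 were higher in H2O2 and Qars was higher in KCl, with a median of 0.16. Tars led with 299 and 294 CPM against 190 CPM in both KCl libraries (log2 0.64 ± 0.06), followed by Gars (0.62 ± 0.06) and Yars (0.60 ± 0.06).

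Promoters are shown for 3 integrated stress response genes as examples, and no result rests on them. Their 250 bases upstream of the RefSeq start site hold the element that ATF4 binds with C/EBP partners. It was searched as TGATGNAA on both strands. The genes shown were chosen after their values and matches were seen. Sequences are from RefSeq (GRCm38.p6, the mm10 build that the submitters' processing notes name), 5′ to 3′ on the gene's strand, with matches in capitals. The start site is that of the RefSeq promoter table, which for Slc7a11 lies inside the RefSeq gene span (chr3:50364936-50499087). The stretches lie at chr3:50443614-50443863 (minus strand, Slc7a11), chr2:119350992-119351241 (plus strand, Chac1) and chr1:191183334-191183583 (minus strand, Atf3).
Slc7a11: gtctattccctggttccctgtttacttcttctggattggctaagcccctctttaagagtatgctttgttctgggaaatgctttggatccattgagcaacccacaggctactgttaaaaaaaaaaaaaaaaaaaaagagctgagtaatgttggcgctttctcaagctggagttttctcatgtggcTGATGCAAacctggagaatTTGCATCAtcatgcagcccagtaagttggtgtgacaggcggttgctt
Chac1: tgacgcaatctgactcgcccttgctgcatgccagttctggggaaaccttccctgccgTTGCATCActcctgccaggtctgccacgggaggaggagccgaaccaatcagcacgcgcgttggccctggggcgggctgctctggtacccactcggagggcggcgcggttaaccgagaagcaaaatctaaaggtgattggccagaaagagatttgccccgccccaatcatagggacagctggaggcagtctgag
Atf3: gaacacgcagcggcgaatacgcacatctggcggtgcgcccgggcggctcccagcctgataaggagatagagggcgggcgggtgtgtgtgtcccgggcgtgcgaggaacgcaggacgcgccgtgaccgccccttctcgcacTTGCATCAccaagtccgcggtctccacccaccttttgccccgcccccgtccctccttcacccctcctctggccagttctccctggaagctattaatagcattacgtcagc

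Slc7a11 had 2 matches, at -66 and -47 from the start site and on opposite strands, Chac1 had 1 at -193, and Atf3 had 1 at -110; each is one DNA sequence in a single window, and a match is not a bound site. Across promoters, 3.75% of 959 genes at least 2-fold higher in H2O2 held this element, 3.73% of 268 at least 2-fold higher in KCl, and 2.41% of all 10175 tested genes with a promoter in the table. For the AP-1 element (TGANTCA) the shares were 7.72%, 4.85% and 5.71%. The core of the antioxidant response element (TGACNNNGC) was in 13.2%, 13.1% and 14.0%. The heat shock element (GAANNTTC) was in 7.19%, 6.72% and 5.98% and the cyclic AMP response element (TGACGTCA) in 3.34%, 1.87% and 2.94%. Each was searched on both strands, and the AP-1, heat shock and cyclic AMP elements read the same on both; all 5 occurred in each of the 3 sets.

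The NRF2 list was split between a few large differences and many small ones. Of 29 genes 14 were higher in H2O2, 3 were higher in KCl (Tkt, Abcc4 and Txn1) and 12 were not called, with a median of 0.14. Besides Slc7a11, the heme-degrading enzyme gene Hmox1 led with 940 and 856 CPM under H2O2, 132 and 121 CPM under KCl and 99.6 and 89.6 CPM in the control (log2 2.83 ± 0.09, edgeR adjusted p = 4.13e-10). Srxn1, sulfiredoxin, which repairs over-oxidised peroxiredoxins, had 218 and 192 CPM under H2O2, 44.1 and 42.6 CPM under KCl and 65.2 and 61.8 CPM in the control (log2 2.24 ± 0.07). The regulators themselves were close: Nfe2l2, which encodes NRF2, had 251 and 239 CPM under H2O2 and 217 and 227 CPM under KCl (log2 0.14 ± 0.07, not called), and Keap1 and Bach1, its inhibitors, had differences of 0.00 ± 0.07 and 0.04 ± 0.07.

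The 250 bases upstream of Srxn1 (chr2:152105274-152105523, plus strand) are shown because they hold 2 AP-1 elements, whose letters also form the centre of many antioxidant response elements.
Srxn1: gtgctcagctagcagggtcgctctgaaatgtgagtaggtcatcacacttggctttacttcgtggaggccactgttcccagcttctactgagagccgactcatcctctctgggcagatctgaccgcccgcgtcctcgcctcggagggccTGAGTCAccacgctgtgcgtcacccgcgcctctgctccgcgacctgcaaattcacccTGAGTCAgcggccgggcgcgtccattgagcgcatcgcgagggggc

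Genes that answer to zinc through the factor MTF1 moved beside the antioxidant ones. Slc30a1, the zinc exporter of the plasma membrane, had 30.1 and 31.2 CPM under H2O2, 4.37 and 4.27 CPM under KCl and 9.19 and 10.4 CPM in the control (log2 2.83 ± 0.14). The metallothioneins Mt2 and Mt1, small proteins that bind zinc by their cysteines, were higher by 1.93 ± 0.07 and 1.12 ± 0.06. Mt1 had 189 and 202 CPM under H2O2, 94.5 and 85.7 CPM under KCl and 146 and 148 CPM in the control, so the control lay between the treatments. Mtf1 was also higher (0.52 ± 0.08), and of the 5 genes in this list only the zinc importer gene Slc39a10 was higher in KCl.

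Immediate early genes, which cells switch on within minutes of a signal, showed the highest list median of the 29 lists. Of 25 tested, 20 were higher in H2O2, 15 of them at least 2-fold, and 2 were higher in KCl (Ier3 and Nr4a2), with a median of 1.49. Fosb, a subunit of the factor AP-1, had 66.4 and 80 CPM under H2O2, 6.96 and 8.18 CPM under KCl and 1.42 and 2.22 CPM in the control (log2 3.27 ± 0.12), so here both treated groups lay above the control. Egr1, a zinc finger factor of the growth response, had 597 and 665 CPM under H2O2 against 81 and 78.2 CPM under KCl, and its KCl libraries lay below the control at 98.1 and 115 CPM (log2 2.99 ± 0.08). Srf, the factor behind many of these genes, was higher in H2O2 by 0.22 ± 0.06, a call lost without the second H2O2 library (0.20).

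Feedback regulators of the stress kinases did not all go the same way. Of 12 GADD45 and dual specificity phosphatase genes 8 were higher in H2O2 and 2 were higher in KCl, Dusp14 and Dusp1. Gadd45a, a DNA damage and stress kinase gene, had 125 and 112 CPM under H2O2 and 28.6 and 26.1 CPM under KCl, beside 26.4 and 27.9 CPM in the control (log2 2.12 ± 0.10). Dusp8 and Dusp5, phosphatases that switch off MAP kinases, were higher by 2.10 ± 0.10 and 1.84 ± 0.07. Dusp1, of the same family and named here after its values were seen, had 54.7 and 56.8 CPM under H2O2, 167 and 145.6 CPM under KCl and 38.1 and 37.9 CPM in the control (log2 -1.49 ± 0.11).

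In the list of NF-kB feedback genes, cytokines and chemokines 18 of 24 were higher in H2O2, with a median of 0.92; Nfkbiz, Cxcl5 and Cxcl12 were higher in KCl. Besides Lif, Icam1, an adhesion molecule for leukocytes, had 5.19 and 5.61 CPM under H2O2 and 1.36 and 1.03 CPM under KCl, with 1.26 and 1.24 CPM in the control (log2 2.18 ± 0.17). Nfkbie, an inhibitor of NF-kB, had 45 and 38.8 CPM under H2O2, 12.3 and 9.4 CPM under KCl and 20.8 and 18.9 CPM in the control (log2 1.95 ± 0.12).

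Secreted growth factors and hormones were divided between the treatments, 7 of 22 higher in H2O2 (31.8%) and 5 in KCl (Bdnf, Tgfb2, Bmp4, Stc1 and Adm). Vegfa, which drives blood vessel growth, had 306 and 315 CPM under H2O2, 69.7 and 73 CPM under KCl and 38.9 and 39.9 CPM in the control (log2 2.12 ± 0.07). Areg, amphiregulin, a ligand of the EGF receptor, was higher by 2.35 ± 0.14 from low levels (25 and 22.5 CPM against 3.79 and 5.49 CPM). Adm, adrenomedullin, a vasodilator peptide, was the reverse: 10.8 and 11.6 CPM under H2O2, 51 and 50.5 CPM under KCl, and 3.98 and 4.68 CPM in the control (log2 -2.18 ± 0.13). For these 3 genes both treatments were above the control, and no libraries of different groups overlapped.

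Of 21 targets of p53, the factor that guards against DNA damage, 14 were higher in H2O2, with a median of 0.41. Of the 21, 3 were called higher in KCl, Polk and Sesn1 among them. Trp53, which encodes p53, was called higher in KCl (-0.24 ± 0.07), but the call was lost on the log2(TPM + 1) scale (-0.15), without the first H2O2 library (-0.18) and without the first KCl library (-0.18). Plk2, a kinase of the centriole cycle, had 1683 and 1797 CPM under H2O2, 470 and 436 CPM under KCl and 190 and 209 CPM in the control (log2 1.94 ± 0.08). Sesn1 went against its relative Sesn2: it had 20.9 and 18.9 CPM under H2O2, 82.8 and 90.1 CPM under KCl and 32.1 and 31 CPM in the control (log2 -2.12 ± 0.08). The 2 sestrins thus marked opposite stresses, Sesn2 high under H2O2 and Sesn1 high under KCl, with the control closer to the lower group for each.

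In the BCL2 family, which sets the threshold for apoptosis, 5 of 15 tested genes were higher in H2O2 (Hrk, Bbc3, Bid, Bcl2l2 and Pmaip1) and 5 in KCl (Bad, Bcl2l11, Bcl2l1, Mcl1 and Bmf). Each is 33.3% of the list, near the 26.4% and 23.7% over all genes. Bbc3, which encodes the death promoter PUMA, had 14 and 12.3 CPM under H2O2 and 6.1 and 4.94 CPM under KCl (log2 1.25 ± 0.12). Mcl1, which protects cells, had 273 and 265 CPM under H2O2, 449 and 462 CPM under KCl and 174 and 177 CPM in the control (log2 -0.76 ± 0.06). Bmf was low in both treatments (1.9 and 1.27 CPM against 3.01 and 3.08 CPM) beside 16 and 16.5 CPM in the control, and its call was lost without the second H2O2 library (log2 -0.68). Hrk had 0.632 and 0.443 CPM under H2O2 and 0 in both KCl libraries.

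Among genes called higher in KCl at an average of at least 8 CPM without overlapping libraries, Ints13 had the largest difference (-4.83 ± 0.89). This could not be read as a difference of the gene. Its KCl libraries were 14.2 and 76.7 CPM, far apart from each other, and the table holds a second row for the same gene under an older symbol. With both rows summed the difference was -0.33. The next was Gper1, a membrane receptor for estrogen, with 1.68 and 1.21 CPM under H2O2, 19.4 and 17.6 CPM under KCl and 3.79 and 3.78 CPM in the control (log2 -3.68 ± 0.19, edgeR adjusted p = 1.7e-08). Frat2, a binder of the kinase GSK3 in Wnt signalling, had 2.78 and 3.33 CPM under H2O2, 28.8 and 26.7 CPM under KCl and 2.62 and 3.28 CPM in the control (log2 -3.17 ± 0.11).

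Several of these genes encode transporters, channels or developmental regulators. Slco4a1, an organic anion transporter, had 17 and 17.3 CPM under H2O2, 114 and 120 CPM under KCl and 10.2 and 9.93 CPM in the control (log2 -2.77 ± 0.08). Kcnj2, an inward rectifier potassium channel, had 6.55 and 6.11 CPM under H2O2, 35.3 and 41.4 CPM under KCl and 26.4 and 24.8 CPM in the control (log2 -2.60 ± 0.11). Kcnj2 was therefore set apart mostly by its low level under H2O2, and the same held for Skida1 (1.99 and 2.45 CPM under H2O2, 15.5 and 14.7 CPM under KCl, 10.3 and 9.99 CPM in the control).

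Six4, a homeobox factor whose span overlaps Mnat1, was higher in KCl by 2.57 on the log2 scale (fold 5.92), and Snx30, a sorting nexin, had 36.3 and 34.8 CPM under H2O2, 200 and 193 CPM under KCl and 46.7 and 49.3 CPM in the control (log2 -2.46 ± 0.07). For Snx30 and Frat2 the H2O2 and control libraries were close and KCl stood apart. Hoxa9, a homeobox factor, and Fes, a tyrosine kinase, belong to this group by size (-3.54 ± 0.10 and -2.67 ± 0.13), but both carried a read-in call in KCl and none in H2O2. Fes had 9.49 and 7.64 CPM under H2O2, 57.9 and 51.3 CPM under KCl and 1.51 and 1.19 CPM in the control, and the upstream gene is Furin.

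The osmolyte list went toward KCl. Of 9 genes 7 were higher in KCl, Sgk1 was higher in H2O2 and Slc6a12, the betaine importer, was not called at 0.126 CPM or less; the median was -1.21. Akr1b3 (chr6:34303930-34317489), the aldose reductase that makes sorbitol, had 108 and 102 CPM under H2O2, 470 and 448 CPM under KCl and 122 CPM in both control libraries (log2 -2.13 ± 0.06, edgeR adjusted p = 3.08e-10). Slc38a2, a sodium-coupled importer of neutral amino acids, had 901 and 984 CPM under H2O2, 3073 and 3525 CPM under KCl and 548 and 543 CPM in the control (log2 -1.81 ± 0.09). Slc5a3, the inositol importer, had 80.3 and 88.7 CPM under H2O2 and 193 and 262 CPM under KCl, beside 56.8 and 60.7 CPM in the control (log2 -1.43 ± 0.13), and its span overlaps Mrps6.

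Nfat5 itself was higher in KCl, at 478 and 651 CPM against 208 and 218 CPM under H2O2 and 139 and 146 CPM in the control (log2 -1.40 ± 0.11). Akr1b3 under H2O2 lay below its control, whereas Slc38a2, Slc5a3 and Nfat5 lay above theirs in both treatments. Ion transporters and kinases that adjust cell volume were split, 5 of 17 higher in H2O2 (29.4%) and 6 in KCl (35.3%), with a median of -0.06 that became 0.03 on the log2(TPM + 1) scale. Atp1b1, a subunit of the sodium pump (overlapping Nme7), was higher in KCl by 1.44 in size (log2 -1.44 ± 0.09). Subunits of the volume-regulated anion channel, which lets swollen cells release solutes, were higher in H2O2: Lrrc8a, Lrrc8b, Lrrc8d and Lrrc8e were called and Lrrc8c was not (0.05). Lrrc8a had 86.9 and 90.5 CPM under H2O2, 39 and 34.3 CPM under KCl and 58.5 and 68.7 CPM in the control, which lay between (log2 1.28 ± 0.09).

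Cytosolic chaperones controlled by HSF1 were higher in KCl. Of 20 tested, 14 were higher in KCl, none was called higher in H2O2 and 6 were not called, with a median of -0.30 beside 0.00 for all genes. Hspa1b and Hspa1a, which encode inducible HSP70, had the largest differences. Hspa1b had 74 and 52.4 CPM under H2O2, 582 and 622 CPM under KCl and 85.3 and 94.7 CPM in the control (log2 -3.25 ± 0.13). Hspa1a had 31.2 and 14.4 CPM under H2O2, 139 and 127 CPM under KCl and 27.8 and 29.4 CPM in the control (log2 -2.55 ± 0.23). These 2 genes are near-identical copies, so how the counts are divided between them is uncertain, though both rows were higher in KCl. Hsph1, a partner of HSP70, had 214 and 219 CPM under H2O2, 452 and 481 CPM under KCl and 217 and 218 CPM in the control (log2 -1.11 ± 0.06), and Hsf1 was not called (0.04 ± 0.07).

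The Hspa1b promoter (chr17:34959239-34959488, minus strand, same source) is shown for its match to the heat shock element at -104, the sequence read by HSF1.
Hspa1b: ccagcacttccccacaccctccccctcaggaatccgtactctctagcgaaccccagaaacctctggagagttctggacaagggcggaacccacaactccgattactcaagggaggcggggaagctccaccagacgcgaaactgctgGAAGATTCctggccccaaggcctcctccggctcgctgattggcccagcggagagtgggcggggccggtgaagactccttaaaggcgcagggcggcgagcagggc

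Chaperones of the endoplasmic reticulum and unfolded protein response genes showed small differences, 3 of 21 higher in H2O2 (Xbp1, Herpud1 and Ern1) and 8 higher in KCl, with a median of -0.11. Xbp1, a factor of that response, had 48 and 43.9 CPM under H2O2, 21.5 and 17.7 CPM under KCl and 41 and 33.9 CPM in the control (log2 1.23 ± 0.10), so it was the KCl libraries that were low. Ern1, the sensor that splices Xbp1, was higher in H2O2 by 0.83 ± 0.09, and Herpud1, of the degradation pathway, by 0.88 ± 0.08.

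**Figure D3:**
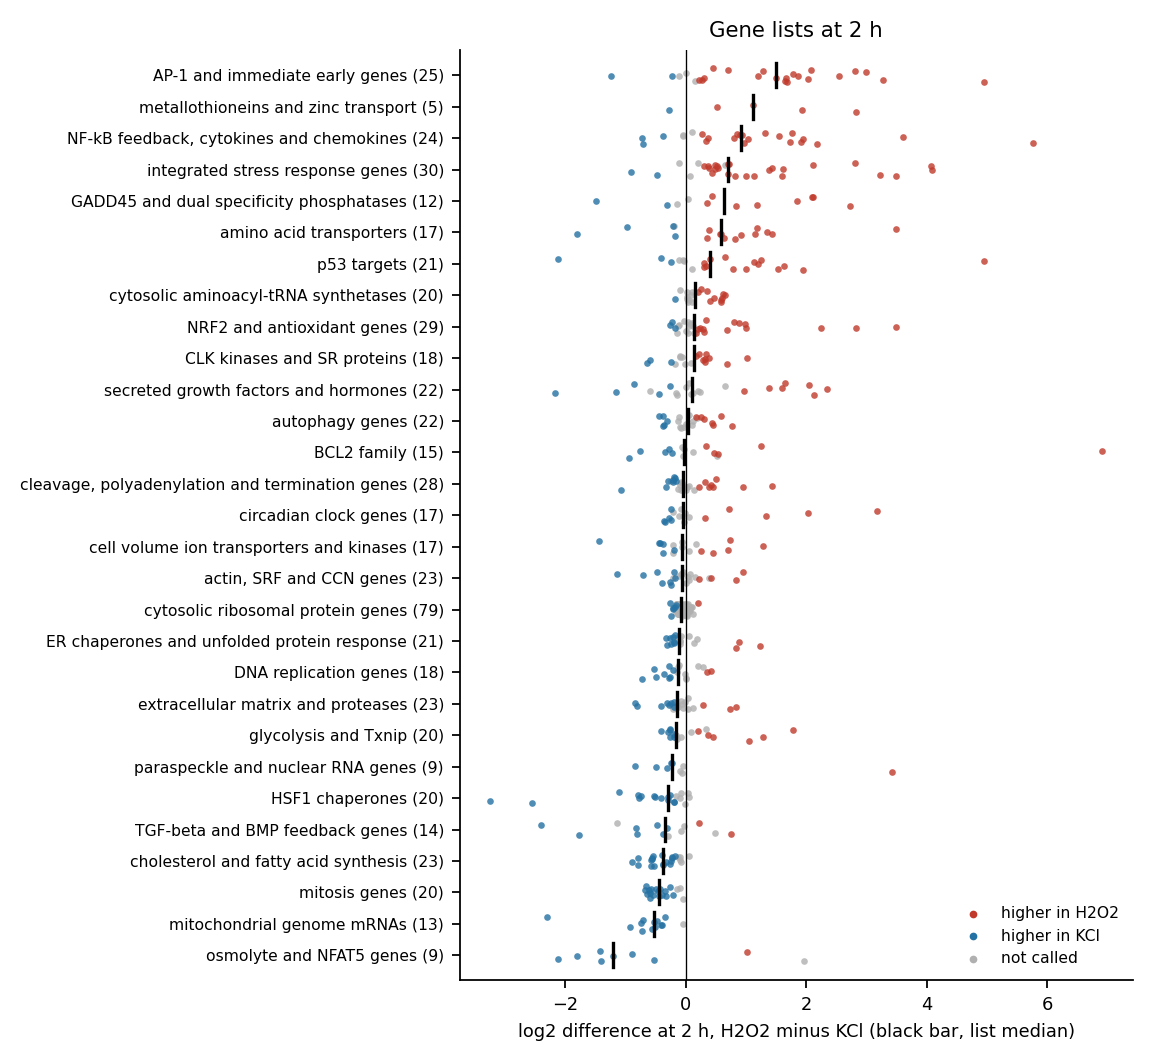
Log2 differences at 2 h (H2O2 minus KCl, x axis) of the genes in each of 29 lists, with the number tested in parentheses; each point is a gene, red or blue where called and grey where not, and the black bar is the list median. Medians run from -1.21 for the osmolyte list to 1.49 for immediate early genes, and the HSF1, cholesterol, mitosis and mitochondrial lists hold no red point.

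Genes of nuclear RNAs and proteins differed in both directions. Besides Neat1, the paraspeckle and nuclear RNA list had 5 of 9 genes higher in KCl (Nono, Hnrnpk, Pspc1, Malat1 and Sfpq). Sfpq, a paraspeckle protein whose span overlaps Zmym1, had 508 and 515 CPM under H2O2 and 854 and 994 CPM under KCl, beside 384 and 421 CPM in the control (log2 -0.85 ± 0.08). Neat1 and these 5 genes therefore lay on opposite sides of the comparison. Malat1, the abundant nuclear RNA next to Neat1, was higher in KCl by 0.49 in size (log2 -0.49 ± 0.11). Of 18 CLK kinases and SR proteins, which control splicing, 9 were higher in H2O2 and 3 in KCl (Srpk2, Clk4 and Clk1), with Clk2 (1.01 ± 0.10) and Clk1 (-0.64 ± 0.07) on opposite sides.

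Factors that cut, polyadenylate and terminate transcripts, the machinery that ends transcription at gene ends, were split 8 to 8 among 28 genes (28.6% each), with a median of -0.04 that became 0.04 on the log2(TPM + 1) scale. Papolg, a nuclear poly(A) polymerase, had 17.6 and 17.8 CPM under H2O2, 6.59 and 6.52 CPM under KCl and 21.2 and 22.4 CPM in the control (log2 1.43 ± 0.11). Cstf2t, a cleavage stimulation subunit whose span lies with Prkg1, was higher in H2O2 by 0.95 ± 0.07. Ints6, of the Integrator complex, had 55.8 and 57.7 CPM under H2O2, 114 and 127 CPM under KCl and 58.9 and 58.4 CPM in the control (log2 -1.08 ± 0.07).

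Metabolic lists differed by less than 2-fold for most genes. None of 23 cholesterol and fatty acid synthesis genes was higher in H2O2 and 18 were higher in KCl, with a median of -0.37. Hmgcs1, an early enzyme of the cholesterol pathway, had 293 and 279 CPM under H2O2, 514 and 550 CPM under KCl and 548 and 523 CPM in the control (log2 -0.89 ± 0.06). Fasn, fatty acid synthase, had 404 and 402 CPM under H2O2, 694 and 705 CPM under KCl and 628 and 658 CPM in the control (log2 -0.79 ± 0.06). In both genes the H2O2 libraries were below the other 4; KCl and control overlapped for Hmgcs1, while for Fasn KCl was above the control; Sc5d differed by -0.79 ± 0.07.

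Of 20 glycolysis genes 6 were higher in H2O2 (30.0%) and 7 in KCl (35.0%), with a median of -0.16. Hk2, the inducible hexokinase, had 158 and 165 CPM under H2O2, 46.6 CPM in both KCl libraries and 52.1 and 60.7 CPM in the control (log2 1.79 ± 0.07). Pfkfb3, which raises the allosteric activator of glycolysis, was higher by 1.05 ± 0.12. Txnip, which restrains glucose uptake, had 4.59 and 4.63 CPM under H2O2 and 2.02 and 1.78 CPM under KCl, both below the control at 23.7 and 19.8 CPM (log2 1.28 ± 0.14).

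Clock genes were split 5 to 5 among 17 (29.4% each), but the members higher in H2O2 had the larger differences. Ciart, a repressor of the clock, had 14.9 and 16.6 CPM under H2O2, 2.06 and 1.42 CPM under KCl and 3.66 and 3.57 CPM in the control (log2 3.18 ± 0.15). Bhlhe40, another repressor, had 468 and 463 CPM under H2O2, 112 and 116 CPM under KCl and 112 and 107 CPM in the control (log2 2.03 ± 0.09), so KCl and control overlapped. Cry2 was higher by 0.71 ± 0.16, and Npas2 and Per2 were the remaining 2 of the 5.

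Genes of cell division were slightly higher in KCl. Of 20 mitosis genes 17 were higher in KCl and none in H2O2 (median -0.45), and of 18 DNA replication genes 8 were higher in KCl and 2, Cdt1 and Ccne1, in H2O2 (median -0.14). Kif11, a motor of the spindle, had 154 and 163 CPM under H2O2, 234 and 265 CPM under KCl and 215 and 202 CPM in the control (log2 -0.65 ± 0.07), and Bub1b (-0.65 ± 0.05) and Cenpf (-0.68 ± 0.11) were alike. Cdc6, which licenses replication origins, had 76.3 and 73.9 CPM under H2O2 and 127 and 121 CPM under KCl with 78 and 73 CPM in the control (log2 -0.72 ± 0.07). It carried a read-in call in KCl alone. Its deposited read-in ratio was 0.0572 and 0.0586 under KCl and 0.0154 and 0.0138 under H2O2. Rrm2 and Pcna, which supply nucleotides and clamp the polymerase, differed by -0.53 ± 0.06 and -0.49 ± 0.07.

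The mRNAs of the mitochondrial genome were higher in KCl: 12 of 13 were called, ND3 was not, and the median was -0.53. COX1, a subunit of cytochrome oxidase, had 4191 and 4283 CPM under H2O2, 7980 and 8223 CPM under KCl and 7187 and 5972 CPM in the control (log2 -0.93 ± 0.07). ND6 had the largest difference (-2.30 ± 0.22), but it lies on the strand opposite ND5 and its counts are uncertain without strand, as are those of ND4L, which overlaps ND4. The cytosolic ribosomal protein genes had small differences: 72 of 79 were not called, 6 were higher in KCl, Rps24 was higher in H2O2, and the median of -0.08 became 0.04 on the log2(TPM + 1) scale. Those named by size, Rpl23a, Rps21 and Rpl37a, differed by -0.27, -0.24 and -0.21, and each lost its call on that scale; Rps21 and Rpl37a also lost it without some of the libraries.

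In the lists on signals to the fibroblast's surroundings, TGF-beta and BMP feedback genes leaned to KCl, 7 of 14 against 2 (Grem1 and Smad3), with a median of -0.34. Id2, an inhibitor of differentiation factors, had 11.2 CPM in both H2O2 libraries, 56.7 and 61.4 CPM under KCl and 9.78 and 9.72 CPM in the control (log2 -2.40 ± 0.08). Nog, the BMP antagonist noggin, was also higher in KCl (-1.78 ± 0.16), as was Smad6, an inhibitor of BMP signalling (-0.83 ± 0.12). Smad6 had 7.15 and 6.2 CPM under H2O2, 12.7 and 11 CPM under KCl and 15.2 and 18.8 CPM in the control, so the H2O2 libraries were the lowest. Of 23 actin, SRF and CCN genes 8 were higher in KCl and 4 in H2O2 (Ctgf, Ccn4, Nov and Srf), with a median of -0.07 that became 0.01 on the log2(TPM + 1) scale. The call of Ccn4 was lost with DESeq2 (0.83) and without either H2O2 library or the first KCl library (0.49 to 0.85). The data also hold a second row for Ccn4 under another symbol, so its counts are uncertain. Ctgf, a secreted matricellular protein, had 579 and 628 CPM under H2O2, 301 and 325 CPM under KCl and 62.3 and 73 CPM in the control (log2 0.95 ± 0.07). Amotl2, a regulator of the Hippo pathway, was higher in KCl (-1.15 ± 0.07).

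Of 23 matrix and protease genes 8 were higher in KCl and 3 in H2O2 (Mmp10, Mmp13 and Timp1), among them the proteoglycan-cutting proteases Adamts5 (-0.84 ± 0.09) and Adamts1 (-0.82 ± 0.06). The call of Mmp10 was lost without the first H2O2 library (0.69) or the first KCl library (0.56). Adamts1 had 334 and 341 CPM under H2O2 and 572 and 618 CPM under KCl, both above the control at 169 and 171 CPM. The autophagy list was near the shares over all genes, with 7 of 22 higher in H2O2 (31.8%) and 5 higher in KCl (22.7%). Those higher in H2O2 were led by Wipi2 (0.76 ± 0.07), Atg16l1 (0.58 ± 0.09) and Ulk1 (0.45 ± 0.07), and those higher in KCl were Tfeb and the 4 ATG8 relatives Gabarap, Gabarapl1, Gabarapl2 and Map1lc3b.

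The same contrast at 7 h came from 4 other libraries, which the test at 2 h did not compare, although the fit took its spread from all 8. At 7 h 10326 of 13172 genes were called (78.4%), 5400 higher in H2O2 (41.0%) and 4926 higher in KCl (37.4%). Of the 1274 genes at least 2-fold higher in H2O2 at 2 h, 704 (55.3%) were called in the same direction at 7 h, 174 (13.7%) in the opposite direction, and 396 were not called. Of the 370 higher in KCl, 240 (64.9%) kept their direction, 53 (14.3%) were opposite and 77 were not called. Across all 13172 genes the log2 differences at 2 h and 7 h had r = 0.368, as a description, since genes are not independent. A test of the difference between the times called 8892 genes (67.5%).

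Lif and Trib3 had similar values at both times. The 7 h difference was 5.54 for Lif and 3.38 for Trib3, and neither change between times was called. Others were found at 2 h alone: Lcmt2 differed by 3.31 at 2 h and -0.03 at 7 h, Ciart by 3.18 and 0.18, and Dusp8 by 2.10 and -0.05, none of them called at 7 h and each called for the change between times. Bhlhe40, Papolg and Xbp1 were higher in H2O2 at 2 h and higher in KCl at 7 h (-0.53, -0.64 and -0.26). Rrm2 and Mcl1 went from KCl to H2O2, at 2.77 and 0.75. Akr1b3 reached -5.03, Hsph1 -3.18 and Gper1 -5.59, each called for the change between times. Hspa1a, at -1.94, and Slc5a3, at -1.62, were not called for it. The median of the HSF1 chaperone list was -0.38 at 7 h, where 12 of 20 were higher in KCl and 5 higher in H2O2.

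List medians had other values at 7 h, given as a description. That of p53 targets went from 0.41 to 2.92, that of integrated stress response genes from 0.70 to 1.91, that of cholesterol and fatty acid genes from -0.37 to -1.89 and that of mitochondrial mRNAs from -0.53 to -2.24, beside 0.00 and 0.05 for all genes. The median of NF-kB, cytokine and chemokine genes went from 0.92 to 0.32, and of these 11 were called higher in H2O2 at 7 h and 9 higher in KCl. All 79 ribosomal protein genes were called higher in H2O2 at 7 h (median 0.57), against 1 at 2 h.

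**Figure D4:**
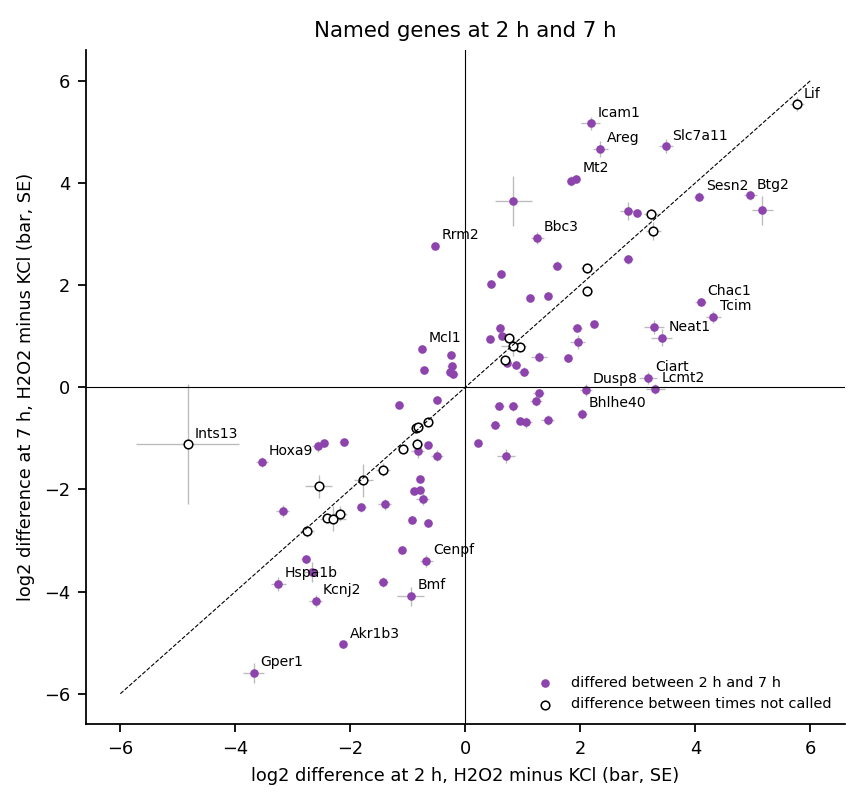
Log2 differences (H2O2 minus KCl) of the 104 named genes called at 2 h, at 2 h on the x axis and at 7 h on the y axis, with bars of 1 SE; filled points differed between the times by the test (82 genes), open points were not called for it, and the dashed line marks equal differences. Lif lies near the line at 5.77 and 5.54, while Lcmt2, Ciart and Dusp8 lie near 0 on the y axis.

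Ribosome footprints, the mRNA fragments covered by ribosomes, came from other libraries of the same treatments at 2 h, with 1460751 and 5168537 counts under H2O2 and 3061451 and 3051649 under KCl. Of 10454 genes tested 478 were called (4.57%), 246 higher in H2O2 (2.35%) and 232 in KCl (2.22%). On the log2(TPM + 1) scale 223 were called, of which 70.0% were higher in H2O2 against 51.5% with edgeR. Without the first or the second KCl library the count was 167 or 161. The first H2O2 library was the shallowest.

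Of the 1274 genes at least 2-fold higher in H2O2 in RNA, 532 were tested in footprints, 477 of these pointed the same way and 123 were called the same way. Of the 370 higher in KCl 223 were tested, 188 pointed the same way and 55 were called the same way. None of either set was called in the opposite direction. The median footprint difference was 1.13 where the RNA of the same genes gave 1.45, and -0.76 where it gave -1.29. Across 10383 genes RNA and footprint differences had r = 0.485.

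Among the genes with the largest RNA differences toward H2O2, footprint differences were 4.57 for Lif, 5.54 for Ccl20, 3.68 for Btg2 and 3.43 for Sesn2, each called. Toward KCl, Slco4a1 (-3.03), Hspa1b (-1.81) and Hspa1a (-1.73) were called in footprints. Gper1 (-2.74), Six4 (-1.04), Kcnj2 (-1.02), Hoxa9 (-0.79) and Snx30 (-0.47) were not called there, nor was Ints13, and Frat2, Skida1 and Fes were not tested. Akr1b3 was called at -1.53. Atf4 had a larger footprint difference (1.52 ± 0.23) than its RNA difference of 0.43. The metallothioneins Mt2 and Mt1 had footprint differences of 4.51 and 3.24 beside RNA differences of 1.93 and 1.12. Plk2, by contrast, had 0.50 in footprints (not called) beside 1.94 in RNA, and Slc5a3 had 0.14 (not called) beside -1.43. Whether footprints and RNA differed from each other was not tested.

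**Figure D5:**
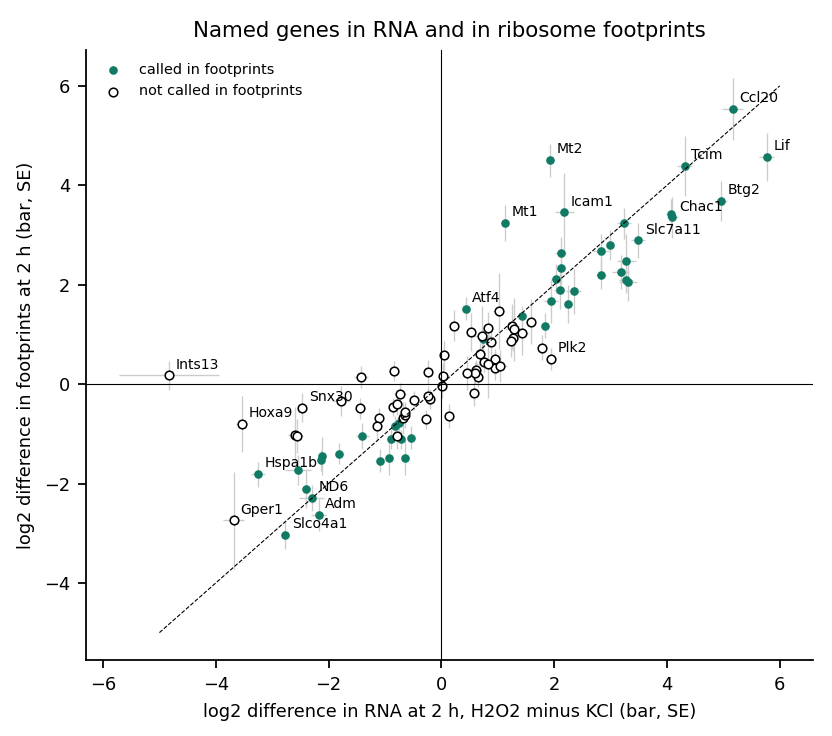
Log2 differences at 2 h (H2O2 minus KCl) of the named genes in RNA (x axis) and in ribosome footprints (y axis), with bars of 1 SE; filled points were called in footprints and the dashed line marks equal differences. Lif, Ccl20 and Btg2 lie at the upper right, Mt2 and Mt1 lie above the line at 4.51 and 3.24, and Ints13 lies near 0 in footprints.

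Read-in into neighbours was counted from the authors' calls for 6399 pairs of neighbouring genes. DoGs were called for 2202 and 2286 pairs in the H2O2 libraries, 2042 and 2220 in the KCl libraries and 1551 and 1615 in the control, so the treatments overlapped and both were above the control. Read-in was called for 161 and 156 pairs under H2O2, 174 and 189 under KCl, and 36 and 35 in the control. The KCl counts were above those of H2O2 in both libraries, although 2 libraries against 2 allow no two-sided exact permutation p below 0.333. Per DoG, 7.31% and 6.82% under H2O2 and 8.52% and 8.51% under KCl carried a read-in call.

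Read-in was called in all 4 libraries for 67 pairs, in both KCl libraries and neither H2O2 library for 53, and the reverse for 37. The downstream genes of the KCl pairs had a median difference of -0.31, with 29 of 52 tested higher in KCl and 8 higher in H2O2. Their upstream genes had a median of -0.15, with 23 of 49 tested higher in KCl and 7 higher in H2O2. For the H2O2 pairs the downstream median was 0.60, with 28 of 37 higher in H2O2 and 3 higher in KCl. The upstream median there was 0.20, with 19 of 36 higher in H2O2 and 0 higher in KCl. Over all genes tested, 26.4% were higher in H2O2 and 23.7% higher in KCl. The calls and the differences come from the same libraries and are not independent. Of the 370 genes at least 2-fold higher in KCl, 19 (5.14%) carried a read-in call in KCl, beside 1.69% of all genes tested. Of the 1274 higher in H2O2, 25 (1.96%) carried one in H2O2, beside 1.48%. Of 13172 genes tested, 299 had a read-in call in either treatment. With these left out, 6419 genes were called, 1598 of them at least 2-fold. So few genes could change the counts only little, so the counts do not show what read-in adds to the differences.

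Gnrh1, Fes and Lag3 led the KCl pairs by size and Guca1b led the H2O2 pairs; they are named after their values were seen, save Fes. Gnrh1, the hormone precursor gene next to Kctd9, had 2.18 and 2.24 CPM under H2O2, 17.8 and 16.2 CPM under KCl and 0.628 and 0.687 CPM in the control (log2 -2.93 ± 0.12), while Kctd9 differed by -0.02 ± 0.06 and was not called. Lag3, an immune checkpoint receptor gene, had 2.06 and 2.36 CPM under H2O2, 11.7 and 12 CPM under KCl and 0.44 and 0.608 CPM in the control (log2 -2.42 ± 0.18). Ptms, upstream of Lag3, differed by -0.46 ± 0.09 and Furin, upstream of Fes, by -0.37 ± 0.07, both called higher in KCl. The deposited read-in ratio of the Lag3 pair overlapped between the treatments, at 2.14 and 1.48 under H2O2 and 1.95 and 2.29 under KCl. That of the Guca1b pair also overlapped, at 0.477 and 0.513 under H2O2 and 0 and 0.556 under KCl. In both sets some pairs had the higher ratio in the treatment without the call. Dnd1, of the H2O2 set, had 1.61 and 1.44 under H2O2 and 2.52 and 2.66 under KCl. Alyref, of the KCl set, had 0.0192 and 0.0198 under H2O2 and 0.0114 and 0.0122 under KCl. Dnd1 and Alyref were picked after their values were seen. Guca1b, a gene of photoreceptors next to Mrps10, had 6.17 and 6.7 CPM under H2O2, 0.659 and 0.395 CPM under KCl and 0.314 and 0.423 CPM in the control (log2 3.61 ± 0.23), while Mrps10 differed by 0.31 ± 0.07. Phlda1, a pleckstrin homology protein, went against its call. Read-in was called in KCl, yet the gene had 258 and 269 CPM under H2O2 and 43.5 and 35.5 CPM under KCl, with 16.9 and 23.1 CPM in the control (log2 2.74 ± 0.12). Gnrh1, Lag3 and Phlda1 were above the control in both treatments, and for Guca1b the KCl and control libraries overlapped.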

How the data were processed

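RNA libraries and ribosome footprint libraries of NIH3T3 cells were used as deposited. Per the submitters' processing notes, Bowtie, RSEM and STAR were used with the build mm10; no version is given there. The authors deposited expected counts per gene from RSEM, which are whole numbers in the files, and TPM values from the same quantification, which scale each library to a sum of 1000000 and keep no depth. Per the file headers, DoG and read-in tables hold true or false calls per pair of neighbouring genes and per library. The deposited read-in estimate is a ratio per pair, of at least 0. How these calls and ratios were made, and whether counting used strand, is not stated in the labels.

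Expected counts of the 8 stress libraries (H2O2 and KCl at 2 h and 7 h, 2 each) were fitted together with edgeR 4.0.16 in R 4.3.3, which left 4 residual degrees of freedom. Genes passed filterByExpr (minimum count 10, minimum total 15), libraries were scaled by TMM, and H2O2 was tested against KCl at 2 h with the quasi-likelihood test, two-sided. P-values were adjusted over all 13172 genes by Benjamini-Hochberg, with a threshold of 0.05. Because TMM scales libraries to each other, a change shared by most genes cannot be seen. CPM values are TMM-scaled over these 8 libraries and the 2 controls. Depth limits the precision of low genes, and the libraries compared held 25207561 to 33106958 counts in RNA. Footprints were fitted in the same way. No replicates were identical or alike within sampling noise.

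The members and the 29 gene lists were chosen with earlier results of these data known, and no list was tested as a set. A gene of one list is not reported here, and that list was counted without it. Genes named are the 12 largest per direction among those called, if their average log2 CPM was 3 or more and their libraries did not overlap; the 3 largest called in each list, if that average was 1 or more; and 11 regulators whatever their value. Others are said to be named after their values were seen.

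Gene symbols were matched to RefSeq (GRCm38.p6): 19885 of 20430 were official and 20384 matched when synonyms were allowed. For 99 genes the table holds 2 rows under different symbols. Promoters are the 250 bases before the start site in the RefSeq promoter table, 1 or more per gene, which may lie inside the gene's span. Alternatives used DESeq2 1.42.0, other scaling, filters and libraries, a replicate block, and limma 3.58.1 on log2(TPM + 1). The main edgeR fit and the DESeq2 fit were tested on simulated counts, for RNA at 2 h, the change between times and footprints at 2 h. The other fits were not. At a simulated log2 difference of 1, edgeR recovered 85.94% of genes in RNA at 2 h and 34.85% in footprints. Of its calls there, 8.33% and 7.78% were false, and footprint differences of this size were often missed. Not used were 12 columns of per-sample values that matched no labelled sample, and the heat libraries.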

Additional observations from a re-analysis of the deposited data

Results flagged for a closer look

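Of 104 named genes called at 2 h, 82 had a difference between H2O2 and KCl that was not the same at 7 h. The test was edgeR's test of the change between times with Benjamini-Hochberg adjustment, which called 67.5% of all 13172 genes. Most named genes were chosen by the size of their difference at 2 h, which enters this test. Values here are the log2 difference at 2 h minus that at 7 h, so a positive value means that H2O2 was higher relative to KCl at 2 h than at 7 h.

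In 24 genes the difference had the same sign at 7 h and was smaller. Of these, 17 were higher in H2O2. Ciart changed by 3.0, Tcim by 2.93, Neat1 by 2.45, Chac1 by 2.42, Rpp38 by 2.10 and Ccl20 by 1.70. The values were 1.22 for Hk2, 1.20 for Btg2, 1.06 for Nfkbie, 1.01 for Srxn1, 0.78 for Plk2 and 0.71 for Clk2. Smaller changes were those of Txnip (0.69), Herpud1 (0.44), Sesn2 (0.33), Hmox1 (0.32) and Lrrc8d (0.25). The other 7 were higher in KCl: Hoxa9 at -2.07, Six4 at -1.41, Snx30 at -1.36, Sesn1 at -1.04, Amotl2 at -0.80, Frat2 at -0.76 and Pcna at -0.25.

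In 38 genes the difference was larger at 7 h. Among the 17 higher in H2O2 the changes were led by Icam1 at -2.99, Ccn4 at -2.82, Areg at -2.32, Dusp5 at -2.19 and Mt2 at -2.15. The change of Ccn4 is uncertain, because the data hold a second row for this gene. Its KCl libraries had 4.9 and 8.57 CPM at 2 h and 1.29 and 0 CPM at 7 h. Bbc3 followed at -1.67, Gars at -1.61, Ulk1 at -1.58, Slc7a11 at -1.23, Ddit3 at -0.78 and Mt1 at -0.63. Slc30a1 stood at -0.62, Yars at -0.57, Atf4 at -0.51 and Egr1 at -0.43, with Tars and Slc3a2 both at -0.35. Among the 21 higher in KCl the values were 3.14 for Bmf, 2.90 for Akr1b3, 2.72 for Cenpf, 2.38 for Atp1b1, 2.07 for Hsph1 and 2.00 for Kif11. Gper1 changed by 1.91, COX1 by 1.67, Kcnj2 by 1.58, ND4L by 1.45, Sc5d by 1.23, Hmgcs1 by 1.14 and Fasn by 1.00. Fes was at 0.94, Nfat5 at 0.89, Malat1 at 0.85, Hspa1b and Slco4a1 both at 0.60, Slc38a2 at 0.54, Bub1b at 0.48 and Smad6 at 0.43.

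In 20 genes the fitted difference at 7 h had the opposite sign, whether or not it was called there. Those higher in H2O2 at 2 h were 13. Lcmt2 changed by 3.34, Bhlhe40 by 2.56, Dusp8 by 2.15, Papolg by 2.07, Cry2 by 2.06, Pfkfb3 by 1.74 and Cstf2t by 1.61. Xbp1 was at 1.49, Lrrc8a at 1.40, Srf at 1.31, Mtf1 at 1.26, Ern1 at 1.21 and Atg16l1 at 0.95. The 7 that were higher in KCl at 2 h were Rrm2 (-3.30), Mcl1 (-1.51), Cdc6 (-1.05), Trp53 (-0.88), Rps21 (-0.66), Rpl23a (-0.56) and Rpl37a (-0.48).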

How the results depend on the processing

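The count of genes called at 2 h, 6599, lay between 5204 and 6911 under all alternatives run; it was 5721 with DESeq2, 5881 when only the 4 libraries compared were fitted, and 6678 with rows of the same gene summed, an alternative chosen after seeing the data. Leaving out a library gave 5204 to 6308. The 2-fold count lay between 1428 and 1831, except for 832 on the log2(TPM + 1) scale. The count for the change between times lay between 8193 and 9224.

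Footprints depended most on the processing. From 478 their count went to 145 with only the 4 libraries compared, to 223 on log2(TPM + 1), and to 161 to 460 with a library left out. Fewer libraries give the estimate of the spread less support, and the first H2O2 footprint library held 1460751 counts; the cause was not tested further. The surplus of read-in pairs in KCl went from 23 to 13 pairs when an estimate of at least 0.5 replaced the authors' call (444.5 against 457.5 pairs); the cause was not tested. For DoG pairs the difference of KCl minus H2O2 was -113, and -24 to -202 with a library left out.

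The replicate numbers in the labels did not pair the samples: deviations of same-numbered libraries correlated with r from -0.0396 to 0.0582. With replicate number as a block 6908 genes were called at 2 h, 1629 at 2-fold, 9047 for the change between times and 465 in footprints.

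Of 1296 combinations of a named gene and an alternative, 1275 kept direction and side of the threshold, 20 lost the call, 1 gained it and 0 changed direction. The gain was Nfe2l2 on log2(TPM + 1) (0.25, limma adjusted p = 0.013). Calls were lost for Bmf, Ccn4, Mmp10, Rpl23a, Rpl37a, Rps21, Srf and Trp53.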

Other observations

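Zinc finger genes with a numbered Zfp symbol, most of which encode DNA-binding proteins, were counted as a list added after their values were seen. The files list 391 such symbols, of which 352 were tested at 2 h. In H2O2 217 were higher (61.6%, beside 26.4% of all genes), in KCl 24 were higher (6.82%, beside 23.7%), and 111 were not called. At 2-fold 121 were higher in H2O2, where 9.67% of all genes were, and 4 in KCl, where 2.81% were, and the median log2 difference was 0.71 beside 0.00 for all genes tested. Their median level was 7.34 and 7.08 CPM under H2O2, 4.08 and 4.35 CPM under KCl and 11.7 and 11.5 CPM in the control, so the control was highest and KCl lowest. Zfp111 had 12.9 and 12.5 CPM under H2O2, 1.44 and 1.62 CPM under KCl and 19.1 and 19.2 CPM in the control (log2 3.05 ± 0.13). Zfp672 had another order, with 46.9 and 43.8 CPM under H2O2, 8.08 and 7.94 CPM under KCl and 21.3 and 20.9 CPM in the control (log2 2.50 ± 0.09).

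At 7 h the median of the list was -0.01. Of the 352 genes, 125 were higher in H2O2 and 122 higher in KCl, beside 41.0% and 37.4% of all genes tested. The change between times was called for 265 of the 352, beside 67.5% of all genes. In footprints at 2 h 270 were tested, and the median was 0.67. Of these, 21 were called higher in H2O2 and 3 higher in KCl, beside 2.35% and 2.22% of all genes tested in footprints. These genes spanned a median of 17.3 kb of genome, beside 23.7 kb for all genes tested.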
